A study of Mus musculus with 71 samples.

Results

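The regions described are the H3K27me3 peaks of day-8 neural progenitor cells (NPC) that were absent from embryonic stem cells (ESC). A peak of the day-8 H3K27me3 ChIP-seq table was taken when it overlapped, by 1 bp or more, no interval of the ESC H3K27me3 ChIP-seq table and none of the ESC H3K27me3 CUT&RUN table. This held for 4113 of the 8657 day-8 peaks, and the other 4544 were shared with ESC. The study used mouse J1 ESC and cells differentiated from them, and asked, by its title, how a Polycomb domain of committed cells acts once placed in the PRC1 complex of pluripotent cells. ESC lost their feeder fibroblasts and their LIF and grew as aggregates for 4 days, retinoic acid was then added to 5 uM, and cells were taken at day 6 and day 8. CaPS cells carried the genotype CBX7-CaPS and WT cells the wild-type form of CBX7, and both genotypes went through the same feeder removal, LIF withdrawal and retinoic acid treatment. RING1B ChIP-seq came from 2 CaPS and 2 WT libraries at day 8 (experiments 3 and 4), and from a time course of 2 libraries per genotype and stage in ESC, at day 6 and at day 8 (experiments 3 and 5). Embryoid bodies of day 10, with 1 RING1B CUT&RUN library per genotype, are used only for peak overlap and for RING1B at Utf1 and Sox2, and their labels do not state whether retinoic acid was given. Knockout cells were not analysed here, and neither RNA levels nor the number of clones behind each genotype are given in the sources used here. The labelled cell type could therefore not be checked by marker expression.

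H3K27me3 is the trimethyl mark that Polycomb repressive complex 2 (PRC2) puts on histone H3, and it marks silent developmental genes. CBX7 is a chromodomain protein that reads this mark and brings PRC1 to it, and RING1B is the ubiquitin ligase of PRC1. When ESC differentiate, pluripotency genes are switched off and some of them gain Polycomb marks, while lineage genes that are switched on lose them.

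The promoters of 4 genes under these regions are shown because the values below turn on them. Utf1 and Fgf4, both pluripotency genes, had the highest WT H3K27me3 of that list, Cbx7 encodes the altered PRC1 subunit itself, and RING1B at Rbmxl2, a germ-cell RNA-binding protein gene, moved differently in the 2 genotypes. Each window runs from 250 bases before to 50 bases after the start and was taken from RefSeq on GRCm38.p6, the assembly also called mm10. It is written 5′ to 3′ on the gene's strand, with each CG dinucleotide in capitals.
Utf1: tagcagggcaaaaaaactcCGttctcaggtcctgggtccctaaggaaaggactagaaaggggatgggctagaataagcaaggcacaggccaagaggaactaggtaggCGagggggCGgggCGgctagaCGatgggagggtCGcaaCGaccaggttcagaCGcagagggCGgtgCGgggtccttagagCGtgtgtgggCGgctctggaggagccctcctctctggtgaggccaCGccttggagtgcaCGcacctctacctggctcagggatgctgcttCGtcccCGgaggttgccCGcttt
Fgf4: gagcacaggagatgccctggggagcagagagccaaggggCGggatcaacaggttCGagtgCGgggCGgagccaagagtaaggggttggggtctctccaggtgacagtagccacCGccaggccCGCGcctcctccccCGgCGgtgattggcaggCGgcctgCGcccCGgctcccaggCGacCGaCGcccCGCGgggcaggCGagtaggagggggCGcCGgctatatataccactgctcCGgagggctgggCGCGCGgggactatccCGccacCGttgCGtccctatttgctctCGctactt
Rbmxl2: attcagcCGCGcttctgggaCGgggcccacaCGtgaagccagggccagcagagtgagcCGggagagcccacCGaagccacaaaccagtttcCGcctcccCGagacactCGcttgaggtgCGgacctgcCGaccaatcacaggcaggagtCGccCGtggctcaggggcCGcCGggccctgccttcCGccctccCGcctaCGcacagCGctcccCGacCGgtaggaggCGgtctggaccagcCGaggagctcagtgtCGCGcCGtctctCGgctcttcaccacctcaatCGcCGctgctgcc
Cbx7: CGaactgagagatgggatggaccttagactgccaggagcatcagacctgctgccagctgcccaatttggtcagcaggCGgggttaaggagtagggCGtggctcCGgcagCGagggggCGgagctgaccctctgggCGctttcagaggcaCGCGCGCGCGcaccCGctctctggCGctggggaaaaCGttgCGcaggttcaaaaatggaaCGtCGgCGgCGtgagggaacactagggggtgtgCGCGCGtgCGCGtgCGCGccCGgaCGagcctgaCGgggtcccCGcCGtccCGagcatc
The Utf1 window lies at chr7:139943606-139943905 on the plus strand and held 17 CG dinucleotides. The Fgf4 window lies at chr7:144861136-144861435 on the plus strand and held 28. The Rbmxl2 window lies at chr7:107209195-107209494 on the plus strand and held 29. The Cbx7 window lies at chr15:79932597-79932896 on the minus strand and held 33. All 4 are rich in CG: the median of all 32817 RefSeq windows of this length was 7. The 574 windows that overlapped a peak absent from ESC had a median of 15 CG, against 18 in the 2279 windows that overlapped a peak shared with ESC. The hexamer CAGGTG, or its reverse complement CACCTG, was present in 37.8% of windows under a peak absent from ESC, 23.9% of those under a shared peak and 20.2% of all windows. These letters are part of the E-box motif that basic helix-loop-helix and zinc-finger E-box factors bind, and a match here is a description only.

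Peaks absent from ESC were narrow and far from genes. Their median width was 739 bp, against 2266 bp for shared peaks, and 1527 of them had the minimum width of 500 bp. Of the 4113, 17.7% had their centre within 1 kb of the nearest start in the authors' annotation, against 41.6% of shared peaks. The share over 100 kb from a start was 18.9%, against 1.85%. By the authors' annotation 49.2% were intergenic (24.1% of shared peaks), 35.3% intronic (39.7%) and 7.56% at a promoter (18.4%). LTR repeats carried 7.78%, against 1.58% of shared peaks. In all they covered 5.56 Mb, against 15.7 Mb for shared peaks.

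**Figure D1:**
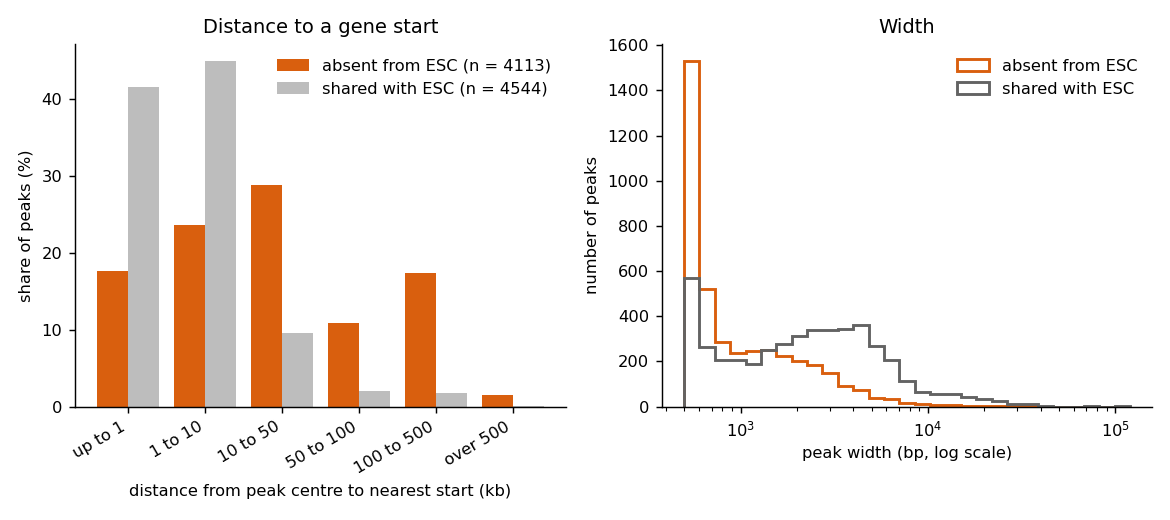
Left, share of day-8 H3K27me3 peaks (%) by distance from the peak centre to the nearest start (kb); right, number of peaks by width (bp, log scale). Peaks absent from ESC (orange, n = 4113) are shifted to long distances and to the 500 bp minimum, while shared peaks (grey, n = 4544) have a median width of 2266 bp.

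The distance to a start also sets how far absence from ESC could be seen. The ESC CUT&RUN table lists only peaks within 10 kb of a start, so for the 2413 regions farther away absence rests on the ESC ChIP-seq table alone, while the 1700 nearer ones were compared with both. The median gap to the nearest ESC interval was 48346 bp, and 339 regions had one within 1 kb. Just inside the rule were peaks near Mir6907 and Pdzd7, each 2 bp from an ESC interval, and near Six2, 3 bp away. Just outside it were peaks near Foxb1, Slco5a1 and Myrip, which overlapped an ESC interval by 1, 5 and 8 bp.

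Both genotypes had low H3K27me3 values at these regions, and the CaPS values were mostly below the WT ones. Values are tags in the peak per 10 M (10000000) tags of the library. The median was 9.27 per 10 M in CaPS and 26.9 per 10 M in WT, and at shared peaks it was 74.7 per 10 M in CaPS and 123 per 10 M in WT. The median log2 ratio of CaPS to WT, each value plus 1, was -1.66 over the 4113 regions, -0.81 over shared peaks and -1.06 over all peaks. CaPS was past 2-fold lower than WT at 3045 of the 4113 regions (74.0%), against a background of 54.5% of all 8657 peaks, and past 2-fold higher at 112 (2.72%), against 3.04%. There was 1 column per genotype, so these ratios have no replicate check and no test. The regions were also picked by peaks of this same mark, and a peak found through a high WT value has a lower ratio by that choice.

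The median ratio of CaPS to WT was lower far from genes than near them. Over 10 kb from a start the median log2 ratio was -2.05 and 2006 of 2413 regions (83.1%) were past 2-fold lower in CaPS. Within 10 kb it was -1.17, and 1039 of 1700 (61.1%) were past 2-fold lower. Shared peaks showed no such gap between far and near, with medians of -0.71 and -0.83.

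Depth differed with genotype here, and its part in the ratios was not tested. The CaPS column rests on 32.88 M tags and the WT column on 4.47 M, and 8.20% of CaPS tags and 16.4% of WT tags fell in peaks of this table. Every region had at least 12.31 per 10 M in the higher of its 2 columns, and at 2470 regions WT reached 14 per 10 M while CaPS did not; that level is 46.0 tags in CaPS and 6.26 tags in WT. When both columns were scaled to the same sum over all peaks, the median log2 ratio of all peaks became -0.09, that of shared peaks turned to 0.17, and that of peaks absent from ESC stayed negative, at -0.75. On that scale the far regions had a median of -1.16 and the near ones -0.22. There 1807 of the 4113 regions were past 2-fold lower and 279 past 2-fold higher, against 2074 and 820 of all 8657 peaks. Among the 1917 regions with at least 50 tags in both columns together, 998 were past 2-fold lower and 112 past 2-fold higher by the values per 10 M. No such count over all peaks is given here.

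**Figure D2:**
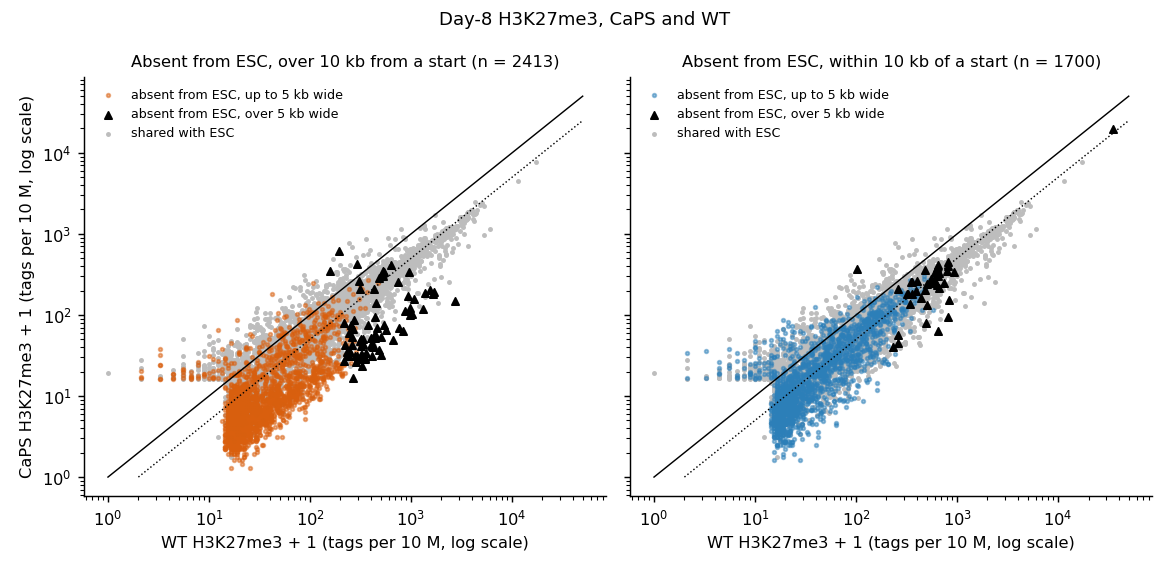
H3K27me3 in CaPS (y axis) against WT (x axis), tags per 10 M plus 1, both log scales; 1 point is 1 peak, the solid line marks equal values and the dotted line 2-fold lower in CaPS. Far regions over 5 kb wide (triangles, left) lie mostly below the dotted line with a median log2 ratio of -2.94, and near ones (right) lie around it with a median of -1.08.

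Broad regions far from genes had lower H3K27me3 values in CaPS than in WT. They were picked by their day-8 H3K27me3 peaks, the same mark as is compared, so these values are a description only. The 75 far regions wider than 5 kb had a median of 58.1 per 10 M in CaPS, against 399 per 10 M in WT, and 65 of them were past 2-fold lower in CaPS. Scaled to the same sum over peaks, their median log2 ratio was -1.95 and 57 were past 2-fold lower. The 38 near regions of that width had a median of 241 per 10 M in CaPS, against 524 per 10 M in WT, a median log2 ratio of -1.08 and, on the other scale, -0.08. The 10 far regions with the highest WT signal were 13.7 to 34.6 kb wide; being chosen by the WT value, which lowers the ratio of CaPS to WT, their values are given as a description only.

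The highest of them spans 34.6 kb at chr7:139518386-139553004 (mm10), 47.1 kb from the start of Nkx6-2, a homeodomain factor of the ventral neural tube and oligodendrocytes, and inside Inpp5a. It had 146 per 10 M in CaPS and 2721 per 10 M in WT, a ratio of 0.0537 with an exact 95% counting interval of 0.0483 to 0.0598. The next, at chr16:91159613-91186990, lies 38.6 kb from Olig2 and 82.8 kb from Olig1, basic helix-loop-helix factors of motor neuron and oligodendrocyte progenitors. It had 190.1 per 10 M in CaPS and 1701 per 10 M in WT. A region of 26.4 kb whose nearest start was that of Htatip2 also lies 50.9 kb from Dbx1, a homeodomain factor of spinal interneuron progenitors. It had 199.8 per 10 M in CaPS and 1529 per 10 M in WT. A region assigned to the pseudogene Sfta3-ps lies 61.3 kb from Nkx2-1, a homeodomain factor of the ventral forebrain. It had 184 per 10 M in CaPS and 1358 per 10 M in WT. Another, 147.8 kb from the start of Nkx6-1, another homeodomain gene of the ventral neural tube, had 98.8 per 10 M in CaPS and 976 per 10 M in WT. The remaining 5 were assigned to Opa1, Prkch, Mir6406 (inside Ntn1, which encodes the guidance cue netrin), Gm29683 and Gpat3. Counted by nearest start, 25 regions were assigned to Nkx6-1, 12 to Dbx2, 10 to Dbx1 and 10 to Nkx6-2; the most, 29, were assigned to Rnf220. The highest value of all, 19639 per 10 M in CaPS and 35019 per 10 M in WT, came from Rn45s, the ribosomal RNA precursor, whose many near-identical copies make its level uncertain.

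Near genes, regions absent from ESC lay at many kinds of genes, pluripotency and epithelial genes among them. Of the 4169 genes with any day-8 H3K27me3 peak within 10 kb, 1421 (34.1%) had a region absent from ESC and 1139 had no shared peak beside it. Of 27 such genes on a pluripotency list, 20 had one and 17 had no shared peak. Of 23 on an epithelial list, 14 had one and 13 had no shared peak; Cdh1 and Epcam are on both lists. The lists were chosen with earlier results of these data known, and a median over a list is given only as a description.

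At the pluripotency genes highest in WT both genotypes carried the mark, while some others on the list had low values. Utf1, a chromatin factor of ESC, had 443 per 10 M in CaPS and 817 per 10 M in WT. Fgf4, the growth factor by which ESC signal to themselves, had 398 per 10 M in CaPS and 803 per 10 M in WT. CaPS was lower at both by the values per 10 M; with both columns set to the same sum the ratio of CaPS to WT was 1.08 at Utf1 and 0.989 at Fgf4, so that the direction at Utf1 turns with the scale. Over the 20 genes, each taken by its region highest in WT, the median log2 ratio was -0.66, with 3 past 2-fold lower in CaPS and 3 past 2-fold higher. All regions within 10 kb, counted 1 by 1, had -1.17, 61.1% and 3.82%, and those over 2 kb wide -1.03, 53.2% and 0.877%. On the same-sum scale the median of the 20 genes was 0.29, with 0 and 4, against -0.22 with 381 and 163 of the 1700 regions within 10 kb. Of the 3 past 2-fold higher by the values per 10 M, Sox2 had 101 per 10 M in WT, Tdh 10.1 and Gdf3 2.24. Foxd3 had 9.43 per 10 M in CaPS and 15.7 per 10 M in WT. Pou5f1, which encodes OCT4, had 157 per 10 M in CaPS and 132 per 10 M in WT. Klf2, Tdgf1, Nodal, Lefty1, Lefty2, L1td1, Klf5, Tfcp2l1 and Nr0b1, picked from the list after their values were seen, were all among the 17 genes with no shared peak.

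At epithelial genes, each taken by its region highest in WT, the median log2 ratio of CaPS to WT was -1.15, with 9 of 14 past 2-fold lower in CaPS. These values are close to the -1.17 and 61.1% of all regions within 10 kb, and those over 2 kb wide had -1.03 and 53.2%. On the same-sum scale the epithelial median was -0.15, with 1 of 14, against -0.22 and 22.4% of all regions within 10 kb. Cdh1, which encodes E-cadherin, the adhesion protein of epithelia and ESC, had 294 per 10 M in CaPS and 651 per 10 M in WT. Esrp2, an epithelial splicing regulator, had 246 per 10 M in CaPS and 743 per 10 M in WT. Grhl2, a transcription factor of epithelia, had 325 per 10 M in CaPS and 659 per 10 M in WT. St14, a membrane serine protease, had 266 per 10 M in CaPS and 592 per 10 M in WT. The 4 genes thus had CaPS at between 0.330 and 0.494 of the WT value, and at between 0.659 and 0.985 on the same-sum scale.

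Most lineage genes with a day-8 peak had a shared one only. Of 37 neural progenitor genes with a day-8 peak 5 had a region absent from ESC, of 33 mesoderm genes 4, of 35 Wnt genes and antagonists 6, of 16 endoderm genes 2 and of 12 Hox genes 0. Neuronal genes stood at the background share, with 9 of 27 (33.3%). Among them Tubb3, which encodes neuronal beta-tubulin, had 251 per 10 M in CaPS and 359 per 10 M in WT. Dbx2, a neural homeodomain gene, was the strongest on the neural progenitor list, with 62.5 per 10 M in CaPS and 651 per 10 M in WT. Of 12 Polycomb subunit genes with a day-8 peak, 7 had a region. Cbx7 had 82.9 per 10 M in CaPS and 133 per 10 M in WT, and Epop, which encodes a PRC2 accessory protein of ESC, had 174 per 10 M in CaPS and 293 per 10 M in WT. Germ-cell genes had 4 of 6, among them Prdm1, which encodes the germline regulator BLIMP1, at 198 per 10 M in CaPS and 222 per 10 M in WT. With both columns set to the same sum the direction turned at 4 of these named genes. The ratio of CaPS to WT was then 1.39 at Tubb3, 1.24 at Cbx7, 1.18 at Epop and 1.78 at Prdm1. On that scale CaPS stayed below WT at 4 of 7 Polycomb subunit genes, 2 of 4 germ-cell genes and 2 of 9 neuronal genes. The median log2 ratios of these lists were then -0.11, -0.34 and 0.48. Other lists held 4 of 12 trophoblast genes, 3 of 12 retinoic acid genes, 2 of 8 fibroblast genes, 4 of 17 endothelial and blood genes, 2 of 5 CDK inhibitors and 4 of 13 imprinted genes, and no housekeeping gene had a day-8 peak. By symbol, 16 of 36 zinc-finger genes, 32 of 101 solute carriers, 13 of 65 potassium channels and 1 of 30 protocadherins had a region.

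**Figure D3:**
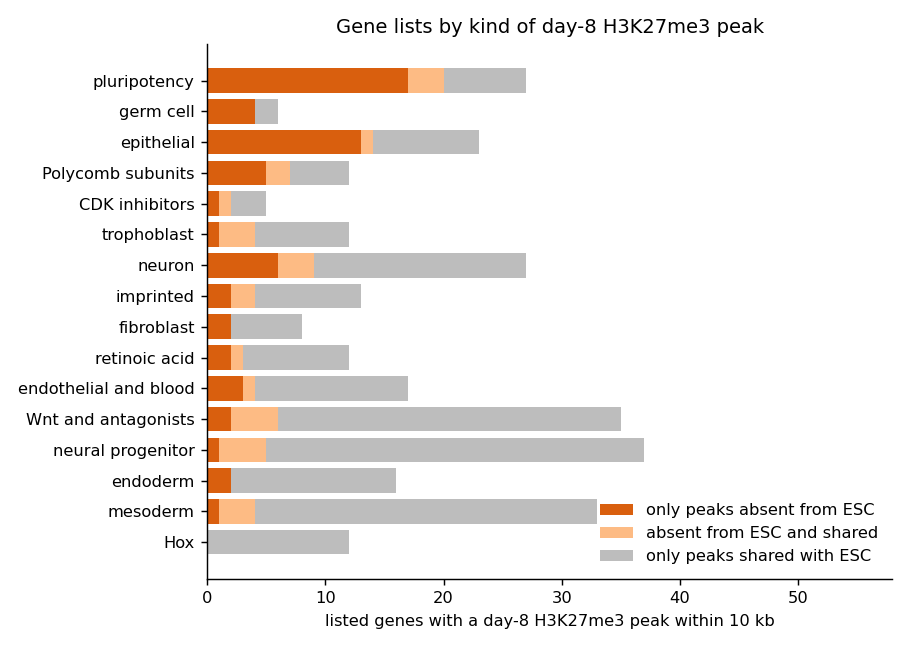
Number of listed genes with a day-8 H3K27me3 peak within 10 kb, by the kind of peak they have. Pluripotency genes (17 of 27) and epithelial genes (13 of 23) have mainly peaks absent from ESC (dark orange), while Hox, mesoderm and neural progenitor genes have mainly shared peaks (grey).

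A few regions had more H3K27me3 in CaPS on either scale. Sox2, the pluripotency and neural progenitor factor, had 363 per 10 M in CaPS and 101 per 10 M in WT, a ratio of 3.60 with a counting interval of 2.68 to 4.97. Gldc, the glycine-cleaving enzyme of the mitochondrial one-carbon pathway, had 126 per 10 M in CaPS and 38.1 per 10 M in WT, a ratio of 3.30 (2.04 to 5.72). Sall2, a zinc-finger factor, had 85.0 per 10 M in CaPS and 17.9 per 10 M in WT. The highest ratios rested on few WT tags: Gdf3, a ligand of the TGF-beta family made by ESC, had 34.8 per 10 M in CaPS and 2.24 per 10 M in WT, which is 1 WT tag. Sox2 also had a shared peak within 10 kb, so its region is a second one beside a peak present in ESC.

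RING1B peaks lay at few of these regions. Of the 4113 regions, 498 (12.1%) overlapped a peak of the day-8 RING1B table, against 51.9% of shared peaks. That table lists only peaks within 10 kb of a start, and within that distance the shares were 29.1% and 59.5%. The time-course table, with 61.1% of its peaks within 10 kb, also covers far regions: 1185 of 4113 (28.8%) overlapped one of its peaks, against 80.9% of shared peaks, with 45.8% of near and 16.9% of far regions. Of the near regions, 28.5% overlapped a RING1B ChIP-seq peak of ESC, 45.4% a RING1B CUT&RUN peak of ESC and 29.5% a RING1B peak of day-10 embryoid bodies, against 76.4%, 80.0% and 57.2% of near shared peaks. A region with no H3K27me3 peak in ESC could thus have a RING1B peak there. Near regions with a day-8 RING1B peak had a median of 54.7 per 10 M of H3K27me3 in CaPS and 91.8 per 10 M in WT, and those without had 10.5 per 10 M in CaPS and 24.6 per 10 M in WT. Wider peaks are overlapped more often, and widths were not matched here.

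At day 8 no difference in RING1B between the genotypes passed the test at these regions. The test was limma on log2(value + 1) over all 5393 peaks of the day-8 table with experiment as a block, and it called 0 higher (background 0%) and 0 lower (background 0%) at an adjusted p under 0.05, at the 498 regions as over the table. At an unadjusted p under 0.05, 7 of the 498 were higher in CaPS and 20 lower, against 129 and 403 of the 5393 peaks. edgeR called 0 at the regions and over the table. DESeq2 called 23 higher and 0 lower, against 101 and 15 over the table. The median log2 difference was -0.23, against -0.37 over the table, and it turned to 0.18 with DESeq2 and to 0.38 without the WT library of experiment 4. Scaled to the same sum over peaks, 30 were called higher and 7 lower, against 192 and 243 of the 5393 peaks. Without the WT library of experiment 3, 24 were called higher and 132 lower, with a median of -0.81; those fits without a library leave 1 sample in a genotype, have no block, and assume that it varies like the pair of the other genotype. At Utf1, RING1B in CaPS was 91.0 and 130.2 per 10 M in experiments 3 and 4, against 61.9 and 279 per 10 M in WT. At Fgf4 it was 52.5 and 62.5 per 10 M in CaPS, against 40.2 and 166 per 10 M in WT. At Sox2 it was 2475 and 1592 per 10 M in CaPS, against 909.8 and 595 per 10 M in WT. At Sox2 both CaPS libraries stood above both WT ones (adjusted p = 0.50, limma), while at Utf1 and Fgf4 the CaPS libraries lay between the WT ones.

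RING1B differences at day 8 are given here by class of H3K27me3 ratio. The 38 regions past 2-fold higher in H3K27me3 had a median log2 RING1B difference of 0.54, with 1.12 in experiment 3 and 0.13 in experiment 4. The 215 regions past 2-fold lower had -0.24, with 0.23 in experiment 3 and -0.64 in experiment 4. The 245 between had -0.27, with 0.31 in experiment 3 and -0.88 in experiment 4, so in both classes the experiments differed in direction. No test compares these classes.

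In both genotypes RING1B was called higher at day 8 at a larger share of these regions than of the whole table. The regions were chosen for a Polycomb mark at day 8 and none in ESC, and that choice favours such an excess. Experiment 5 of this time course also gave the day-8 H3K27me3 libraries, by the labels. The shares are thus a description only. Over time in CaPS cells, 80 of the 1185 regions with a time-course peak (6.75%) were called higher at day 8 than in ESC, against a background of 1.63% of 15091 peaks, and 131 (11.1%) lower, against 14.1% (limma, adjusted p under 0.05). Regions can share a RING1B peak: the 1185 lay on 1120 peaks, of which 62 were called higher and 124 lower. The median log2 change over the regions was -0.32, against -0.48 over the table. With equal sums over peaks these medians turned to 0.34 and 0.13, with 200 called higher and 37 lower (766 and 810 peaks over the table). DESeq2 gave 189 and 26 (555 and 613 over the table). Without the CaPS day-8 library of experiment 5 those counts were 36 and 45, and without that of experiment 3 they were 60 and 66. Without the CaPS ESC library of experiment 3 they were 81 and 54, and without that of experiment 5 they were 43 and 72. In WT cells, 94 of the regions (7.93%) were called higher at day 8 than in ESC, against a background of 1.73%, and 222 (18.7%) lower, against 20.9%. Of the 1120 RING1B peaks, 77 were called higher and 210 lower. The median log2 change over the regions was -0.44, against -0.61 over the table and -1.43 at shared peaks, of which 22 were called higher and 2282 lower. With equal sums over peaks, the table median turned to 0.36 and that of these regions to 0.63. On that scale 325 regions were called higher and 37 lower (1351 and 857 peaks over the table). DESeq2 gave 224 and 30 (564 and 674 over the table). Without the WT day-8 library of experiment 5, 43 were called higher and 128 lower, and without that of experiment 3, 60 and 134. Without the WT ESC library of experiment 5 they were 54 and 148. At day 6, 62 were called higher than in ESC (background 1.61%) and 153 lower (background 14.6%). On the same-sum scale 259 were called higher and 38 lower (1145 and 605 peaks over the table). Without the WT day-6 library of experiment 5 the day-6 counts were 29 higher and 37 lower, without that of experiment 3 they were 40 and 173, and without the WT ESC library of experiment 5 they were 26 and 91. Without the WT ESC library of experiment 3 the day-8 counts were 79 higher and 123 lower and the day-6 counts 48 and 87. Equal sums shift the peaks of a library together, so a turn of the medians follows from the scaling itself. Of 64 named tests, 57 kept their call on that scale, 7 lost it and 0 reversed. All 64 had a call in the main fit and they include the largest changes, which favours keeping it. They do not stand for the whole set of regions.

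Sox2 rose in CaPS. RING1B there was 1032 and 1540 per 10 M in CaPS ESC and 3109 and 6178 per 10 M in CaPS at day 8 (experiments 3 and 5), a log2 change of 1.80 ± 0.47 (SE, limma adjusted p = 0.0018). In WT it was 597 and 737 per 10 M in ESC and 1168 and 549.8 per 10 M at day 8, and the WT change was 0.27 ± 0.47 (limma adjusted p = 0.73). The difference between those changes did not pass (limma adjusted p = 0.52). Each RING1B value is that of the RING1B peak, which can extend past the H3K27me3 region or cover only a part of it. Of the 15 pluripotency genes with a time-course peak, 5 rose in CaPS at day 8 (background 1.63%), 3 rose in WT (background 1.73%), and none was called lower in either. Utf1 and Fgf4 were not called at day 8 in either genotype, with 98.3 and 123 per 10 M in CaPS and 69.4 and 103 per 10 M in WT for Utf1. Fgf4 was called higher at day 6 than in ESC in WT (log2 1.01 ± 0.37, SE, limma adjusted p = 0.040). Of 9 epithelial genes with a peak, 1 fell in each genotype (background 14.1% in CaPS and 20.9% in WT), Krt8, which encodes a keratin of simple epithelia.

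RING1B fell at some regions whose H3K27me3 peak was absent from ESC. The region 46.5 kb from Slc22a12, which encodes a urate transporter, had 226.9 and 347 per 10 M of RING1B in CaPS ESC and 41.8 and 44.1 per 10 M in CaPS cells at day 8. In WT it had 339 and 264 per 10 M in ESC and 41.1 and 38.7 per 10 M at day 8, a log2 change of -2.88 ± 0.37 (SE, limma adjusted p = 9.22e-13). It fell in both genotypes. At the region near Mir3475 the CaPS change was -2.45 ± 0.38 (SE, limma adjusted p = 1.11e-08) and the WT change -3.17 ± 0.38 (limma adjusted p = 2.82e-14).

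The time courses of the genotypes parted at some broad far domains. These were picked by day-8 H3K27me3 peaks, and the broad far regions had medians of 58.1 per 10 M in CaPS and 399 per 10 M in WT. By the labels that H3K27me3 is from experiment 5, as is a part of the RING1B libraries here. The choice thus favours regions high in WT at day 8, so the calls below are no independent check. Of the 41 far regions wider than 5 kb with a time-course peak, 3 were called higher at day 8 than in ESC in CaPS (background 1.63%) and 2 lower (background 14.1%), with a median log2 change of -0.06. In WT 16 were called higher (background 1.73%) and 4 lower (background 20.9%), with a median of 1.6. The 41 regions lay on 38 RING1B peaks, and the 16 called higher in WT on 13. The test of the difference between the changes in CaPS and WT called 8 of the 41 lower in CaPS (background 0.0729%), on 6 peaks. It called 1 of the 41 higher (background 0.199%), and the median of the 41 was -1.02. Of the 34 near regions of that width it called 0 in either direction (limma; 2 higher and 1 lower at an unadjusted p under 0.05), with a median of 0.13. Over all 1185 regions it called 12 lower in CaPS, against a background of 0.0729%, and 8 higher, against 0.199%. All 12 lower ones were far regions, and their 9 RING1B peaks were 9 of the 11 that the table called lower. Of the 8 higher ones 6 were near, on 5 RING1B peaks, and all 8 lay on 7 of the 30 peaks called higher. The ratio of CaPS to WT in H3K27me3 was 0.0605 to 0.170 at the 12, with a median of 0.0923. Low ratios were common among far regions, of which 83.1% were past 2-fold lower in CaPS, and the far regions over 5 kb had a median of 0.131 (each value plus 1). At the 8 the ratio was 0.727 to 4.75, above 1 at 7 of them.

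Single libraries bear on these calls. Without the WT day-8 library of experiment 5, 1 was called lower and 0 higher, and without the CaPS day-8 library of experiment 5, 0 and 0. Without the WT ESC library of experiment 5 there were 3 lower and 2 higher, without the CaPS ESC library of experiment 5 there were 5 and 0, without the CaPS ESC library of experiment 3 there were 6 and 10, and without the CaPS day-8 library of experiment 3 there were 6 and 4. Higher calls numbered 5, 4, 5 and 19 without the WT libraries of experiment 3 in ESC, experiment 3 at day 6, experiment 5 at day 6 and experiment 3 at day 8, and 15 and 16 without the CaPS day-6 libraries of experiments 3 and 5. Without the block of experiments 0 were called in either direction. On the same-sum scale there were 22 lower and 12 higher (66 and 50 peaks over the table). edgeR gave 15 and 2 (18 and 17 over the table), and DESeq2 7 and 10 (26 and 47).

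Cacna2d1, which encodes an auxiliary subunit of calcium channels, showed the smallest p among the lower ones. A RING1B peak under 3 regions, the middle one at chr5:15986975-15993563 (mm10), 55.6 kb from the start, had 58.5 and 72.3 per 10 M in CaPS ESC, 65.0 and 99.1 at day 6 and 72.0 and 97.9 at day 8 (experiments 3 and 5). In WT it had 54.6 and 80.7 per 10 M in ESC, 243 and 219 at day 6 and 270.03 and 938 at day 8. The genotypes overlapped in ESC and did not overlap at day 6 or day 8. The interaction was -2.54 ± 0.50 (log2, SE, limma adjusted p = 0.0016). H3K27me3 at the middle region was 29.8 per 10 M in CaPS and 408 per 10 M in WT.

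Epha7 encodes an ephrin receptor of axon guidance, and a domain lies far from its start. RING1B at its widest region was 22.6 and 20.7 per 10 M in CaPS ESC and 32.0 and 21.5 per 10 M in CaPS at day 8, and 22.6 and 18.3 per 10 M in WT ESC and 96.5 and 284 per 10 M in WT at day 8 (interaction -2.70 ± 0.60, SE, limma adjusted p = 0.0081). At the region near Nkx2-1 assigned to Sfta3-ps it was 36.3 and 50.9 per 10 M in CaPS at day 8, against 79.6 and 212 per 10 M in WT (interaction -2.04 ± 0.53, SE, limma adjusted p = 0.043). At both the WT day-8 libraries lay above both CaPS ones. The H3K27me3 domain of 34.6 kb near Nkx6-2 overlapped a RING1B peak far narrower than itself, so the values of that peak do not describe the domain as a whole: they were 2.57 and 4.89 per 10 M in CaPS and 5.93 and 15.3 per 10 M in WT at day 8. The RING1B peak near Olig2, of 2054 bp, had 11.8 and 24.5 per 10 M in CaPS and 24.97 and 71.8 per 10 M in WT at day 8, and the interaction did not pass (-1.39 ± 0.73, SE, limma adjusted p = 0.65).

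Near genes the 6 called regions, on 5 RING1B peaks, had the more positive change in CaPS. At Rragd, which encodes a GTPase of nutrient signalling, RING1B at day 8 was 190.2 and 385 per 10 M in CaPS, against 60.5 and 43.5 per 10 M in WT. In ESC it was 51.3 and 43.4 per 10 M in CaPS and 53.8 and 55.0 per 10 M in WT (interaction 2.58 ± 0.52, SE, limma adjusted p = 0.0020). At Gldc it was 154 and 253 per 10 M in CaPS at day 8, against 44.9 and 29.02 per 10 M in WT (interaction 2.29 ± 0.54, SE, limma adjusted p = 0.018). At Rbmxl2, whose promoter is printed above, it was 470.3 and 739 per 10 M in CaPS at day 8, against 189 and 139 per 10 M in WT (interaction 1.96 ± 0.50, SE, limma adjusted p = 0.039). In all 3 the CaPS libraries at day 8 lay above the WT ones. At the far region near Chd7, a chromatin remodeller gene, it was 369 and 679 per 10 M in CaPS and 79.2 and 60.5 per 10 M in WT.

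**Figure D4:**
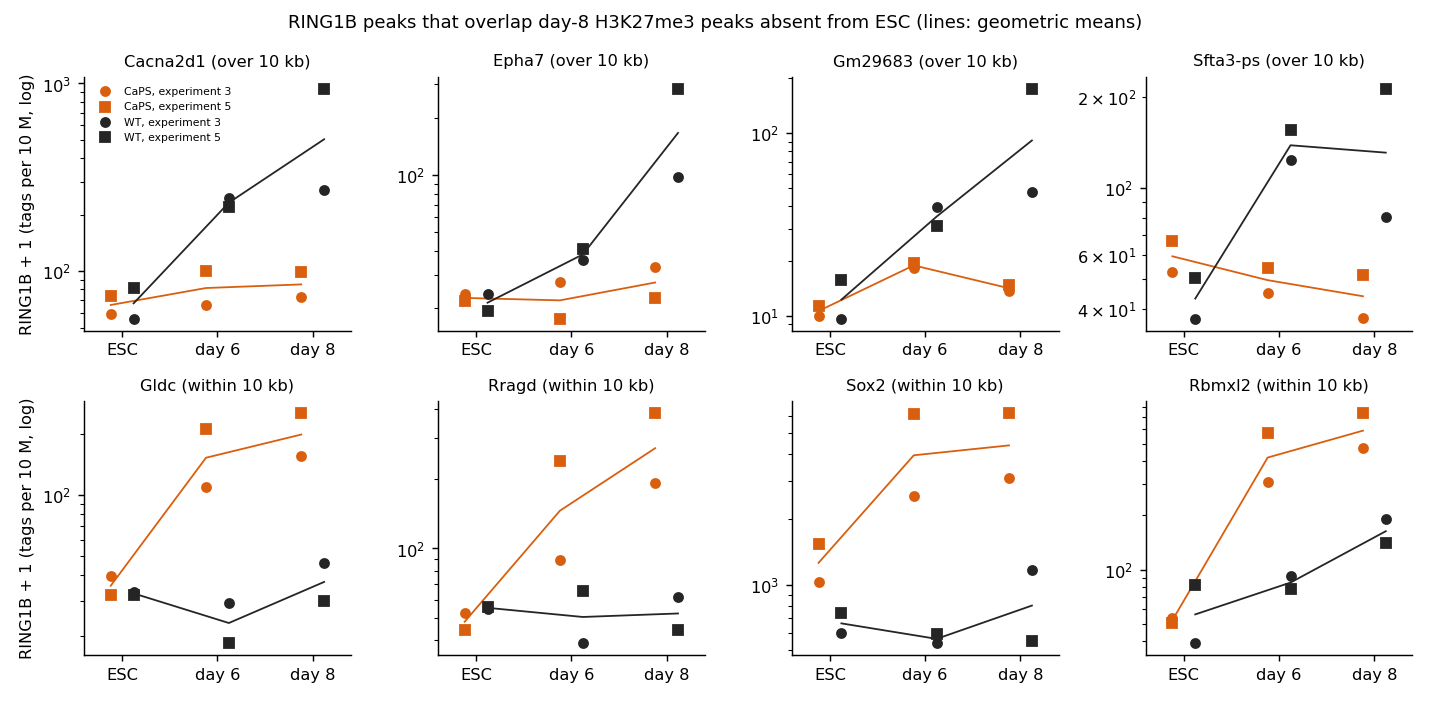
RING1B (tags per 10 M plus 1, log scale) in ESC and at days 6 and 8 at 8 regions, for CaPS (orange) and WT (black); circles are experiment 3, squares experiment 5 and lines join geometric means. Far regions (top) stay low in CaPS and are higher in WT at day 8, as at Cacna2d1 with 72.0 and 97.9 against 270.03 and 938 per 10 M; Gldc and Rragd are higher in CaPS.

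**Figure D5:**
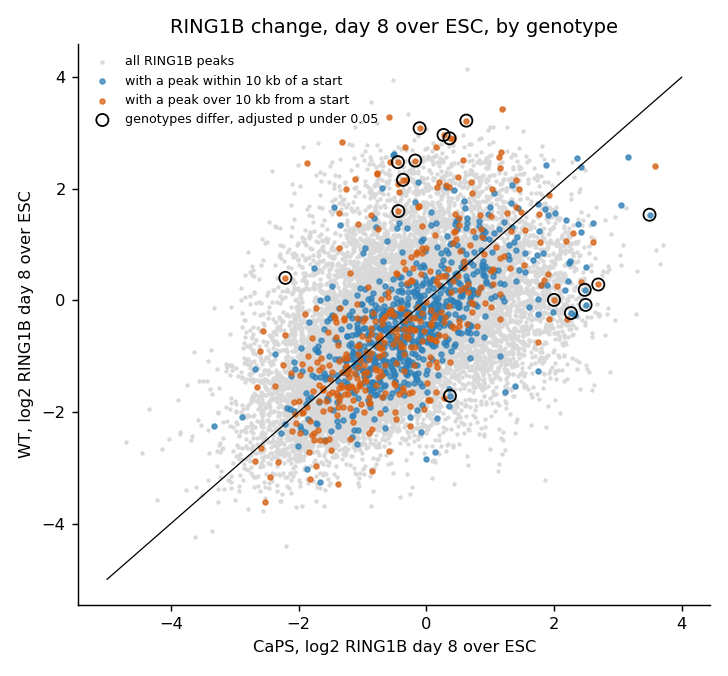
Log2 change of RING1B from ESC to day 8 in CaPS (x axis) and WT (y axis); 1 point is 1 RING1B peak, coloured where it overlaps a region absent from ESC within 10 kb (blue) or over 10 kb (orange), and the line marks equal change. Circled peaks overlap the 12 regions called lower and the 8 called higher in CaPS; those above the line are all orange.

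RING1B and CBX7 were already measured in ESC at some near regions. At Grhl2, RING1B in ESC was 62.8, 157 and 148 per 10 M in CaPS (experiments 1 to 3), against 105, 488 and 238 per 10 M in WT. CBX7 there was 28.9, 93.2 and 56.9 per 10 M in CaPS, against 80.3, 303 and 128 per 10 M in WT. In each of these 3 experiments CaPS lay below WT for both proteins. RING1B at Grhl2 in ESC of experiment 5, from the time course, was 206.65 per 10 M in CaPS and 203.48 per 10 M in WT. In experiments 1 to 3 the share of tags in all peaks was also lower in CaPS. For RING1B it was 3.47%, 8.20% and 8.34% in CaPS, against 6.57%, 19.3% and 9.45% in WT. For CBX7 it was 2.63%, 7.098% and 3.63% in CaPS, against 6.395%, 16.96% and 5.57% in WT. Whether Grhl2 differed beyond this was not tested. At Utf1, RING1B in ESC was 29.99, 53.9 and 41.9 per 10 M in CaPS, against 23.3, 117 and 21.9 per 10 M in WT. CBX7 there was 4.48, 17.1 and 13.9 per 10 M in CaPS, against 9.90, 22 and 8.20 per 10 M in WT. The genotypes overlapped at Utf1. In day-10 embryoid bodies, with 1 CUT&RUN library per genotype and no replicate check, RING1B at Utf1 was 32.5 per 10 M in CaPS and 30.9 per 10 M in WT, and at Sox2 it was 341 per 10 M in CaPS and 248 per 10 M in WT.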

How the data were processed

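RING1B, CBX7 and H3K27me3 were profiled by ChIP-seq or CUT&RUN. Per the submitters' processing notes, HOMER 4.10.4, Bowtie2 2.3.4.3, cutadapt 1.14 and SAMtools 1.9 were used. Per the file headers, the deposited values are a signal, tags per peak scaled to 10 M (10000000) tags, on mm10; 3 per-sample columns were not used. Per the labels' protocols, Drosophila chromatin was added as a spike-in, and the sources used here do not say if the totals already correct for it. The day-8 H3K27me3 columns are called pooled per the file headers, while the labels list 1 library per genotype.

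Because the values are a signal, limma 3.58.1 (R 4.3.3) tested log2(value + 1) over all peaks of a table, with an intensity trend and Benjamini-Hochberg adjustment at 0.05. The prior degrees of freedom came out infinite, so every peak took the trended spread. Experiment entered as a block: per the series design text, comparisons were made between experiments performed at the same time, and deviations of same-numbered libraries correlated at 0.25 in the day-8 table and at 0.06 to 0.22 in the time course. The same library, WT day 8 of experiment 3, is listed with 10.34 M tags by the day-8 table but with 11.81 M by the time-course table, so each table was tested alone. All values (100%) were whole multiples of 0.5 tag within 0.05 of a read end, and edgeR 4.0.16 and DESeq2 1.42.0 ran on those tags as alternatives. Python 3.11.15 was used for overlaps, which needed 1 bp. RING1B libraries held 2.01 to 27.09 M tags; a count of 3 tags is 14.9 per 10 M in the shallowest. Intervals and such floors cover counting error only. No label ties the experiments to separate clones or cultures, so p-values measure the spread between these libraries, which may be technical.

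Named were the 10 members highest in WT H3K27me3, at most the 4 highest per gene list, the highest in RING1B, those called in each test (at most 8 each way), the extreme ratios, the 5 widest and the 3 nearest to the rule's edge. Some results under this rule are not reported here. Members, 17 gene lists and 11 symbol families were chosen with earlier results of these data known. No genome was used, so sequences are RefSeq promoter windows, of which 23 of 74 named near members had their own. Alternatives were another pseudocount, a filter on low values, scaling to the same sum over peaks, no block, both count tools and leaving out each library. Tests were tried on simulated data first.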

Additional observations from a re-analysis of the deposited data

Results flagged for a closer look

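At 16 named regions the change of RING1B from ESC to day 8 differed between CaPS and WT in the time course (interaction of the limma fit, adjusted p under 0.05 over 15091 peaks). The interaction is the CaPS change minus the WT change on the log2 scale. It was negative at 9 of them, all over 10 kb from a start: -3.19 near Bbx, -2.92 near Chic2, -2.70 and -2.59 at separate regions far from Epha7, -2.68 near Adcyap1, -2.61 near Htatip2, -2.54 near Cacna2d1, -2.53 near Dennd1a and -2.04 near Sfta3-ps. It was positive at 7: 1.96 at Rbmxl2, 1.99 near Spaca7, 2.08 at Sall2, 2.29 at Gldc, 2.41 near Chd7, 2.49 at Nova1 and 2.58 at Rragd.

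At Htatip2 the CaPS libraries had 8.68 and 9.79 per 10 M at day 8 and 36.9 and 57.9 per 10 M in ESC. The WT libraries there had 14.8 and 68.5 per 10 M at day 8 and 22.6 and 25.7 per 10 M in ESC. The value at Htatip2 thus rests on a fall in CaPS. That RING1B peak, of 1957 bp, is far narrower than the H3K27me3 region of 26.4 kb and does not describe it as a whole. At Sall2 the CaPS libraries had 75.6 and 136 per 10 M at day 8 and 60.5 and 101 per 10 M in ESC, and the WT libraries 43.6 and 21.8 per 10 M at day 8 and 92.5 and 115 per 10 M in ESC, so its value rests on a fall in WT. Over all regions, 12 were called lower and 8 higher; without the WT day-8 library of experiment 5 the counts were 1 and 0, and the cause was not tested.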

How the results depend on the processing

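The member count stayed within 1.5 times of 4113 under 6 other overlap or signal rules (2833 to 5229). Scaled to the same sum over peaks, H3K27me3 was past 2-fold lower in CaPS at 1807 regions and past 2-fold higher at 279, against 2074 and 820 of all 8657 peaks. With at least 50 tags, by the values per 10 M, 998 regions were lower. On the same-sum scale the RING1B calls were 30 higher and 7 lower for CaPS against WT at day 8, 200 and 37 for CaPS day 8 against ESC, 325 and 37 for WT day 8, 259 and 38 for WT day 6, and 22 lower for the interaction. In the same order, the calls over all peaks of the tables were 192 and 243, 766 and 810, 1351 and 857, 1145 and 605, and 66. DESeq2 gave 23 higher for CaPS against WT, 189 higher and 26 lower for CaPS day 8, 224 and 30 for WT day 8, 149 and 37 for WT day 6, and 7 lower for the interaction. Over all peaks of the tables these were 101, 555 and 613, 564 and 674, 382 and 674, and 26. edgeR gave 281 lower for CaPS day 8 (4369 over the table) and 2 higher for the interaction (17 over the table). A filter at a mean of 10 per 10 M left 4 higher for the interaction (23 over the table). Without the block of experiments there were 57 lower for CaPS day 8, 55 higher and 138 lower for WT day 8, 27 and 87 for WT day 6, and 0 and 0 for the interaction. Over the table these were 1197, 108 and 2248, 79 and 1247, and 0 and 1. Leaving out 1 library in turn gave 0 to 24 higher and 0 to 132 lower for CaPS against WT, 36 to 91 and 45 to 162 for CaPS day 8, 43 to 99 and 123 to 247 for WT day 8, 26 to 77 and 37 to 173 for WT day 6, and 0 to 19 and 0 to 15 for the interaction. In the day-8 table those fits had no block and took their spread from the genotype left with 2 libraries. The cause was not tested. Of 64 named tests, all with a call in the main fit, 28 kept their call and direction under every alternative that could be run, and 0 reversed. The distance limits of 50 and 1 kb and the width limit of 2 kb were chosen after seeing the data. Depth limits WT H3K27me3, where 1 tag is 2.24 per 10 M.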
